A study of Mus musculus with 2 samples.

Results

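The guanylate-binding proteins (GBPs) are large interferon-inducible GTPases of the dynamin superfamily, and 10 of their genes were followed by symbol among the 17128 genes of the table: Gbp2, Gbp2b, Gbp3, Gbp5 and Gbp7 on mouse chromosome 3, and Gbp4, Gbp6, Gbp8, Gbp9 and Gbp10 on chromosome 5. All 10 had a row. The RNA came from primary cells of mouse liver labelled as hepatic stellate cells, the pericytes that turn into matrix-producing myofibroblasts. The cells of both libraries carried the genotype Adar1f/f/Cre-ER, floxed alleles of the gene for the RNA-editing enzyme ADAR1 with a tamoxifen-activated recombinase, and were kept in DMEM with 10% FBS for 4 days of culture activation. One library was from cells given vehicle and the other from cells given 100 nM 4-hydroxytamoxifen (4-OHT), which switches the recombinase on, so the comparison asks how induced loss of ADAR1 changes expression. With n = 1 per group there was no replicate check and no test, and each difference below is between these libraries. No library had 4-OHT without floxed alleles, so loss of ADAR1 and the drug itself cannot be told apart. The labels do not name the promoter that drives Cre-ER or the number of mice, and Adar, the floxed gene, was not analysed here.

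GBPs bind GTP, assemble into coats on the membranes of pathogens and of the vacuoles that hold them, and help to open these to inflammatory caspases. Interferon gamma is their classic inducer, and type I interferon also raises them. Gbp2b, Gbp2 and Gbp5 proteins end in a prenylation signal that anchors them to membranes, while other mouse members have none.

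Values were in FPKM, fragments scaled by transcript length and library size, so levels can be set side by side between genes. For 1 kilobase of effective length, a level of 1 FPKM equalled 38.5 fragments in the vehicle library and 30.5 in the other. Of 15 stellate cell markers, 15 were in the table, with a summed level of 368 FPKM with vehicle and 168 FPKM with 4-OHT. The 15 macrophage markers summed to 6426 and 4363 FPKM and the 12 endothelial markers to 1948 and 1872 FPKM, both sums above those of the labelled cell type. Of these macrophage and endothelial markers none was at least 2-fold higher with 4-OHT, and 3 and 2 were at least 2-fold lower. Of the 15 stellate cell markers 6 were at least 2-fold lower. Among the 13558 genes that reached 1 FPKM in either library, 5.78% were at least 2-fold higher and 3.48% at least 2-fold lower. Single stellate cell markers ranged from 1.16 to 120.9 FPKM with vehicle and from 0.209 to 65.6 FPKM with 4-OHT, with medians of 10.6 and 2.43 FPKM. The macrophage markers ranged from 3.18 to 3050 and from 4.14 to 1353 FPKM, with medians of 275 and 239 FPKM. The ranges overlapped, so single stellate cell markers such as Dcn, a matrix proteoglycan at 120.9 and 65.6 FPKM, stood above some macrophage markers. The 8 of 14 lymphocyte markers present summed to 18.3 and 29.8 FPKM, and most of that difference was the granzyme gene Gzmb, at 0.350 and 10.2 FPKM. Gzmb was the 1 of 7 tested lymphocyte markers at least 2-fold higher after 1 FPKM was added to each level. Cd3e, Cd2, Cd3d and Cd3g were higher too, by plain ratios of 3.29, 2.49, 2.25 and 2.04. None of these stood above 4.45 FPKM in either library, and with the added 1 FPKM they lay within 2-fold. Cd4, at 10.6 and 7.62 FPKM, and Klrb1c, at 2.54 and 0.927 FPKM, were lower. The median log2 change of the 7 was 0.779. Hepatocyte markers were represented by 3 of 10 and cholangiocyte markers by 3 of 6. The hepatocyte markers summed to 17.5 and 37.7 FPKM, mostly Ass1 at 15.7 and 37.3 FPKM, while Alb had 1.41 and 0.334 FPKM. The cholangiocyte markers summed to 99.6 and 37.4 FPKM, mostly Spp1 at 94.8 and 34.5 FPKM. In such bulk RNA, fewer cells of a type and less RNA per cell cannot be told apart, and which cells made the GBP transcripts was not tested.

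Promoter sequences were at hand for the 5 members on chromosome 3, from RefSeq on GRCm38.p6 (250 bases before to 50 after each annotated start, 6 starts in all). They are shown because each of the 5 genes held the core of an interferon-stimulated response element, the letters GAAA, any 2 bases and GAAA again, or on the other strand TTTC, any 2 bases and TTTC, where IRF factors are known to bind. In the 70-base stretches below, all on the plus strand and read 5′ to 3′, capitals mark that core.
Gbp2 (chr3:142620574-142620643): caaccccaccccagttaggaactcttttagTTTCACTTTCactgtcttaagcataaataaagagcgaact
Gbp2b (chr3:142594680-142594749): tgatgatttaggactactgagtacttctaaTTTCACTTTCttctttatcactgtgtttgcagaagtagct
Gbp5 (chr3:142496739-142496808): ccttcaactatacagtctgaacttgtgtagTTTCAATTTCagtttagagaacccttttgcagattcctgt
Gbp3 (chr3:142559969-142560038): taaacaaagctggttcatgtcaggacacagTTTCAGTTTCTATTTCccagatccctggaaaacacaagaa
Gbp7 (chr3:142530253-142530322): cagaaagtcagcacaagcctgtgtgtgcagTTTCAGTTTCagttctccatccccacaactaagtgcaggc

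The first base of the core lay 59 bases before the RefSeq start in Gbp2, 137 in Gbp2b, 165 in Gbp5, 45 in Gbp3 and 53 in Gbp7. The gene spans given below are from GENCODE and differ. By those spans the cores of Gbp2 (from base 142620604) and Gbp5 (from base 142496769) lie inside the gene. Gbp3 held 2 overlapping cores, and its other annotated start held none. Over all 32851 promoters of the same length, 3.44% held the core on either strand. A GAS-type element, TTCNNNGAA, the gamma-activated site, which reads alike on both strands, was found 2 times in Gbp5 and 2 times in Gbp7. It was found in 8.30% of all promoters, and both motifs together in 0.454%. These letters were not in the windows of Gbp2, Gbp2b and Gbp3, and a match or its lack describes the letters, not binding.

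Every member was higher in the 4-OHT library, by 4.15-fold to 106-fold as a plain ratio of FPKM. The summed level of the 10 members was 94.2 FPKM with vehicle and 1356 FPKM with 4-OHT, a ratio of 14.4, equal to 0.0191% and 0.245% of all FPKM. On the scale of log2(FPKM + 1), 10 of 10 members were at least 2-fold higher, against 5.78% of the 13558 genes that reached 1 FPKM in either library. Of all those genes 783 were at least 2-fold higher and 472 lower, and after division of each library by its total FPKM the counts were 632 and 643. At 4-fold the members counted 9 of 10, against 2.16% of all genes, and at 8-fold 9 of 10, against 1.06%. Gbp8, with a log2 change of 1.99 on this scale, was the member under 4-fold. Their median log2 change was 3.71, beside 0.034 over all genes tested. Gbp10 reached the minimum of 1 FPKM in the 4-OHT library alone; without it, 9 of 9 members were at least 2-fold higher.

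**Figure D1:**
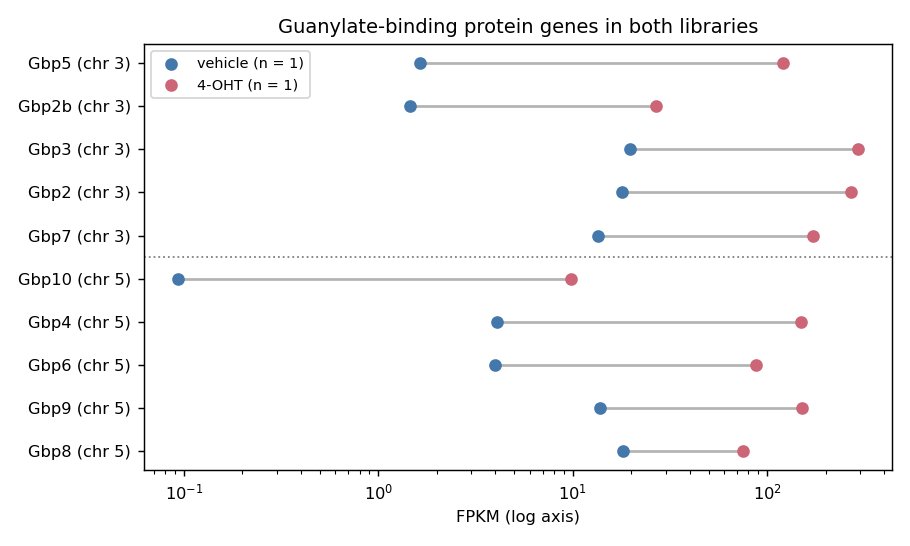
FPKM of each member (log axis) with vehicle and with 4-OHT, 1 library each, by chromosome and by falling ratio. The 4-OHT point lies to the right of the vehicle point in every row, from 4.15-fold for Gbp8 to 106-fold for Gbp10.

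Among the prenylated members on chromosome 3, Gbp5, which promotes inflammasome assembly, had 1.63 FPKM in the vehicle library and 121 FPKM in the 4-OHT library. This was a ratio of 74.2 and a log2 change of 5.53, the highest of the members and number 29 of 13558 genes by change. The gene lies at chr3:142493978-142522344 on the plus strand of GRCm38. Gbp2, which coats vacuoles of Toxoplasma and is among the most studied mouse GBPs (chr3:142620602-142638008, plus strand), had levels of 18.0 and 269.6 FPKM, a ratio of 15.0 and a log2 change of 3.83. Its level was 11.0 times that of Gbp5 with vehicle and 2.23 times with 4-OHT. Gbp2b, named Gbp1 in older work (chr3:142594847-142619179, plus strand), had 1.46 and 26.7 FPKM, the lowest level of the chromosome 3 members in either library. It has 1 annotated transcript, so its FPKM could be turned back into fragments, 149 with vehicle and 2160 with 4-OHT. Its ratio of 18.3 had an exact 95% counting interval of 15.4 to 21.7, which covers counting error and not differences between cultures.

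The remaining chromosome 3 members, Gbp3 and Gbp7, were among the most abundant in both libraries. Gbp3, whose protein is recruited to Toxoplasma vacuoles in mouse cells (chr3:142560026-142573209, plus strand), had 19.6 and 294 FPKM, the highest level of any member in each library. Its ratio of 15.0 and log2 change of 3.84 were close to those of Gbp2. Gbp7, linked to the assembly of the phagocyte oxidase in mouse macrophages (chr3:142530342-142550149, plus strand), had levels of 13.4 and 173 FPKM, a ratio of 12.9 and a log2 change of 3.59. Leaving Gbp5 aside, the log2 changes on chromosome 3 thus lay between 3.49 and 3.84.

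The chromosome 5 members were more spread. Gbp4, reported in mouse to restrain the factor IRF7 (chr5:105115767-105139586, minus strand), went from 4.09 to 149 FPKM between vehicle and 4-OHT, a ratio of 36.4 and a log2 change of 4.88. Gbp9 (chr5:105077630-105139539, minus strand), also recruited to Toxoplasma vacuoles, stood at 13.8 and 151 FPKM, a ratio of 10.9 and a log2 change of 3.36. Gbp8 (chr5:105014150-105139540, minus strand) had 18.1 and 75.01 FPKM. Its ratio of 4.15 and log2 change of 1.99 were the lowest of the family, number 295 of 13558 genes. With vehicle Gbp8 stood above Gbp9 and Gbp4, and with 4-OHT it stood below both.

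Gbp6, another member found on Toxoplasma vacuoles (chr5:105270702-105293698, minus strand), had levels of 3.96 and 87.1 FPKM, a ratio of 21.98 and a log2 change of 4.15. Gbp10 (chr5:105215699-105239533, minus strand) had 0.0928 and 9.80 FPKM, the lowest level of the family in each library. Its vehicle value stood for 2 fragments if its shortest annotated transcript is taken and 12 if its longest is taken. The ratio of 106 then had an exact 95% counting interval of 27.1 to 828 or of 60.1 to 205. One further Gbp row, Gbp11 (chr5:105323042-105346472, minus strand), a polymorphic pseudogene outside the 10 members, had 0.0450 and 18.0 FPKM. Its vehicle value stood for 2 to 4 fragments, so the ratio of 400 had an interval of 110 to 3298 or of 170 to 1599, by the same choice of transcript.

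The authors' deposited table gave its own p-values and q-values, from a test of these 2 libraries. The sources used here do not give how that test estimated the spread. By the authors' deposited table, 8 of 10 members were higher at a q-value under 0.05, against 1.72% of all 17128 genes. The q-value there was 0.00466 for Gbp2, Gbp2b, Gbp3, Gbp4, Gbp5, Gbp6 and Gbp7 and 0.00881 for Gbp9. The 7 members at 0.00466 had the smallest p-value in the authors' deposited table, 5e-05, which 273 rows shared. The same table gave a q-value of 0.9996 for Gbp8 and for Gbp10, with p-values of 0.192 and 0.249, although Gbp10 had the highest plain ratio of the family.

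By cluster, the summed level on chromosome 3 was 54.1 FPKM with vehicle and 884 FPKM with 4-OHT, a ratio of 16.3. On chromosome 5 it was 40.1 and 472 FPKM, a ratio of 11.8. Chromosome 3 therefore made up 57.5% of the family's summed FPKM with vehicle and 65.2% with 4-OHT. The median log2 change was 3.83 for chromosome 3 and 3.36 for chromosome 5, and the ranges overlapped, 3.49 to 5.53 against 1.99 to 4.88. The order of the medians rests on the added 1 FPKM, since with an added 0.1 FPKM they were 3.90 and 4.42. Without Gbp10 the chromosome 5 median was 3.75, still below that of chromosome 3. The clusters are not set apart by these values.

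**Figure D2:**
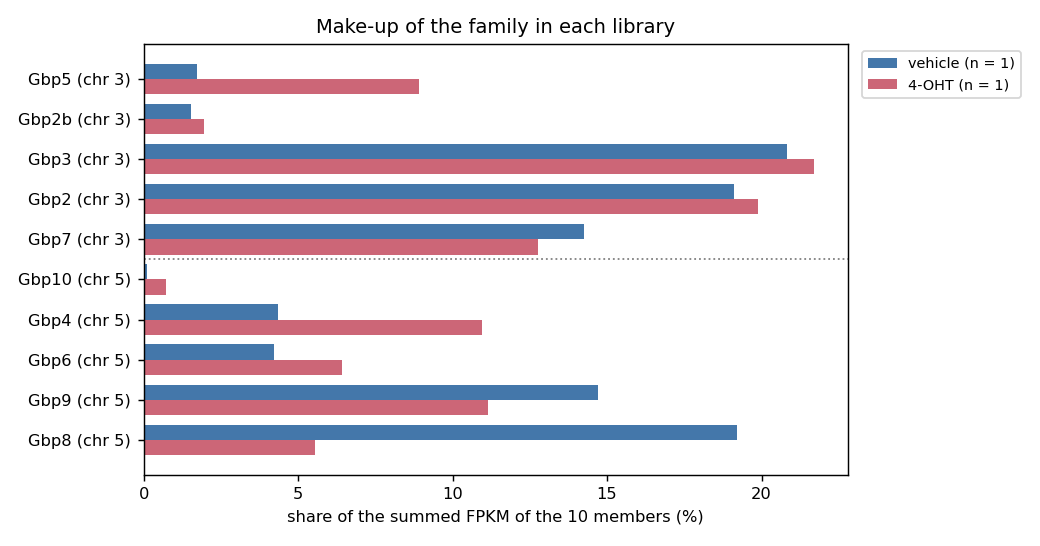
Share of each member in the summed FPKM of the 10 members (percent), with vehicle and with 4-OHT, 1 library each. Gbp8 went from 19.2% to 5.53%, and Gbp5 from 1.73% to 8.91%, while Gbp3, the largest share in each library, went from 20.8% to 21.7%.

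Within the family the order of levels shifted for a few members. Gbp3 (20.8% of the summed FPKM with vehicle, 21.7% with 4-OHT) and Gbp2 (19.1% and 19.9%) kept close to their shares. Gbp5 went from 1.73% to 8.91% and Gbp4 from 4.34% to 11.0%. Gbp8 went from 19.2% to 5.53%, and Gbp9 from 14.7% to 11.1%. With vehicle 5 members were at 10 FPKM or more, and with 4-OHT 9 were, all but Gbp10.

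How well these genes can be told apart by their reads differed by cluster. Between coding sequences, identity over aligned bases was 63.2% to 82.5% in the 10 pairs within chromosome 3, highest for Gbp2 with Gbp2b. It was 89.7% to 98.4% in the 10 pairs within chromosome 5, and 63.0% to 75.9% in the 25 pairs between chromosomes. Windows of 50 bases were then cut from the longest coding transcript of each gene and looked up in all annotated transcripts on either strand. Of the windows of Gbp5, Gbp2b, Gbp2 and Gbp3, 95.2% to 99.1% were found in no other gene. The share was 87.2% for Gbp7, 90.4% for Gbp9, 87.2% for Gbp4 and 78.8% for Gbp8. It was 17.5% for Gbp10 and 9.82% for Gbp6, and with windows of 100 bases still 29.1% and 17.1%. The sources used here do not give the read length.

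**Figure D3:**
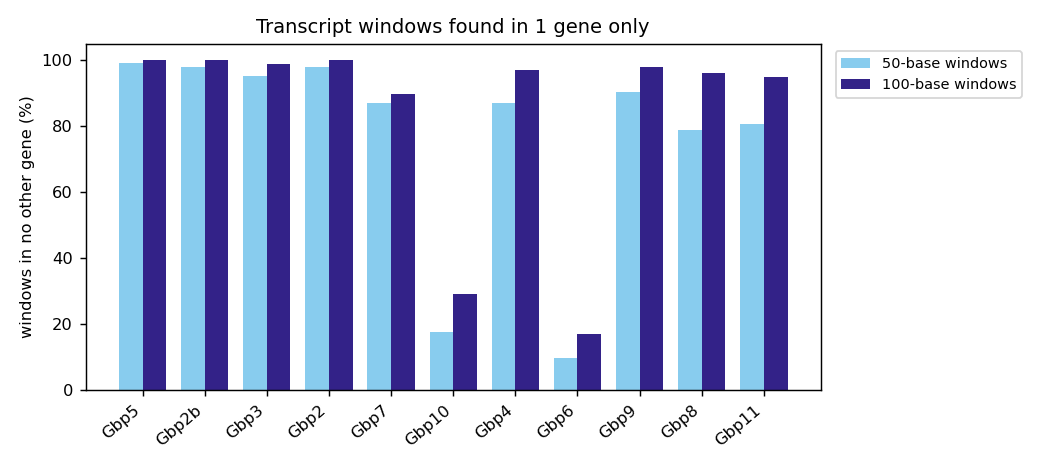
Share of the 50-base and 100-base windows of each gene's longest coding transcript that occur in no other annotated gene (percent). Gbp6 and Gbp10 stand at 9.82% and 17.5% for 50 bases, and every other gene shown at 78.8% or more.

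Gbp6 and Gbp10 had coding sequences of 1836 bases each that differed at 30 positions, with a longest identical run of 421 bases. The end of that run is printed to show how close they are, from coding base 1277 to 1356 in each, counted from the A of the start codon (chromosome 5, minus strand, across an exon boundary), with the differing base in capitals.
Gbp6: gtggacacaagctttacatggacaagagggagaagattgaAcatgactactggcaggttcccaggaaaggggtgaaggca
Gbp10: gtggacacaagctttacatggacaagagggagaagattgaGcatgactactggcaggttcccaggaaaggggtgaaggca

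Of the 50-base windows of Gbp6, 62.3% occurred in Gbp10, and 90.2% occurred in Gm43302. This gene model overlaps both and had no row among the genes within 500 kb of the cluster. Of those of Gbp10, 79.2% occurred in Gm43302. The split of fragments between Gbp6 and Gbp10 is therefore uncertain, and their sum, 4.06 FPKM with vehicle and 96.9 FPKM with 4-OHT, had a ratio of 23.9. Any fragments given to Gm43302 lie outside that sum. Gbp4, Gbp8 and Gbp9 were also joined in the deposited table, which gave them a single shared locus. A Gbp8 transcript and a Gbp9 transcript are annotated to begin at bases 105139540 and 105139539, close to the first base of Gbp4, 105139586. The summed level of these 3 genes was 36.0 and 375 FPKM, a ratio of 10.4, which leans less on how fragments were divided among them than the 4.15 of Gbp8 or the 36.4 of Gbp4.

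Most genes beside the clusters lay within 2-fold, as did most genes tested. Within 500 kb of either cluster 14 genes outside the Gbp family passed the minimum, of which 12 lay within 2-fold, 1 was higher and 1 lower, with a median log2 change of 0.20. Gbp11, given above, also lies in this window and was higher (log2 change 4.18), and is not among the 14. Of the 10 protein-coding ones 9 lay within 2-fold. Next to the chromosome 3 cluster, Pdlim5, a cytoskeletal scaffold, was at 69.3 and 80.7 FPKM, and Kyat3, a transaminase, at 14.2 and 12.8 FPKM. Beyond Kyat3, the general transcription factor gene Gtf2b was at 24.7 and 24.5 FPKM and the kinase gene Pkn2 at 27.7 and 43.8 FPKM. Next to the chromosome 5 cluster, the volume-regulated channel genes Lrrc8b (8.02 and 5.82 FPKM), Lrrc8c (28.6 and 45.2 FPKM) and Lrrc8d (11.6 and 19.98 FPKM) lay within 2-fold, as did Zfp951 (6.42 and 7.46 FPKM) and BC005561 (4.42 and 5.72 FPKM). The lower one was Abcg3, a transporter gene 31.4 kb from Gbp8, at 12.7 and 4.19 FPKM (log2 change −1.40). Among all genes tested, 3.48% were at least 2-fold lower and 5.78% at least 2-fold higher. The higher one outside the family was Gm43802, a processed pseudogene annotated inside Gbp7, at 1.11 and 19.2 FPKM. Of the 50-base windows of Gbp7, 10.6% occur in Gm43802, so its value cannot be told apart from that of Gbp7.

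**Figure D4:**
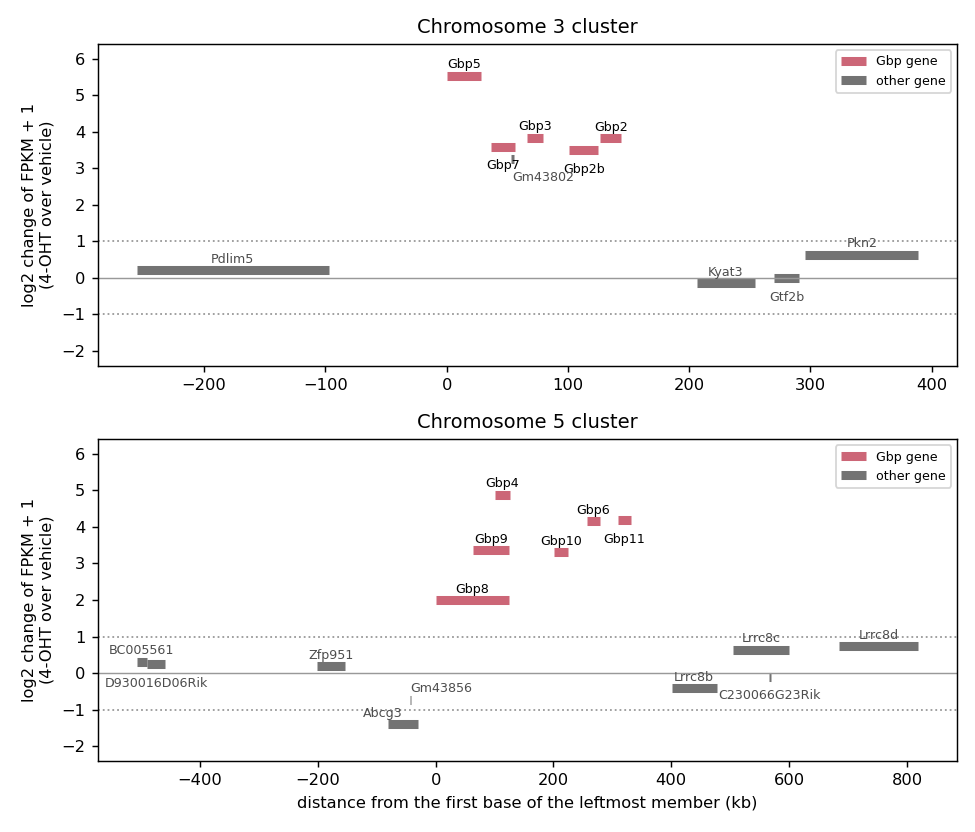
Log2 change of FPKM + 1, 4-OHT over vehicle, of genes along each cluster, against distance in kb from the first base of the leftmost member; bars span each gene and dotted lines mark 2-fold. The Gbp genes lie between 1.99 and 5.53, while the genes around them, other than Gm43802 inside Gbp7 and Abcg3, lie within 2-fold.

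Transcription factors of the interferon response were in part higher. Of 11 such factors, 6 were at least 2-fold higher and 5 lay within 2-fold, against 5.78% of all genes tested at least 2-fold higher. Their median log2 change was 1.59. Stat2, a subunit of the factor that type I interferon activates, was at 21.7 and 156 FPKM (2.79). Irf1, which binds response elements in GBP promoters, was at 51.3 and 213 FPKM (2.03), Irf7 at 25.9 and 979 FPKM (5.19) and Batf2 at 4.23 and 30.1 FPKM (2.57). Of 10 tested interferons, receptors, kinases and brakes, 3 were at least 2-fold higher, beside the same 5.78% of all genes, and 7 lay within 2-fold. The interferon beta gene Ifnb1 was listed at 0 in the vehicle library and at 21.6 FPKM in the other. The interferon gamma gene Ifng had 0.151 and 0.569 FPKM, under the minimum. Jak2, a kinase of the interferon gamma receptor, was at 32.2 and 77.5 FPKM, and Socs1, which inhibits it, at 0.378 and 2.36 FPKM, with Socs3, a related inhibitor, within 2-fold at 7.38 and 12.4 FPKM. The receptor genes Ifngr1 (41.8 and 36.4 FPKM) and Ifnar1 (40.4 and 34.0 FPKM) lay within 2-fold.

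Related interferon-inducible GTPases were higher too. Of 11 tested immunity-related GTPases, which work beside GBPs on vacuoles, 10 were at least 2-fold higher, with a median of 3.36. Iigp1 was at 12.4 and 325 FPKM (log2 change 4.60), Tgtp1 at 0.370 and 24.6 FPKM (4.22), Gm12250 at 5.86 and 99.0 FPKM (3.87) and Igtp at 9.93 and 156 FPKM (3.84). The member within 2-fold was Irgq, at 7.02 and 5.33 FPKM. Of 6 other interferon-inducible large GTPases 6 were higher, led by the antiviral genes Mx1 (6.76) and Mx2 (5.61), and with Gm8995 (2.77) and Gm4070 (2.65), which resemble the very large inducible GTPase Gvin1. Of 12 tested dynamin-superfamily GTPases that cells use without interferon, none was at least 2-fold higher and 11 lay within 2-fold, with a median of −0.060. Over all genes tested, 5.78% were at least 2-fold higher and 3.48% lower, so most lay within 2-fold. Dnm2, the endocytic dynamin, was at 62.5 and 76.8 FPKM. Ehd3, which acts in endosome recycling, was lower at 41.9 and 13.3 FPKM (−1.58), and Ehd2 (−0.91), Ehd4 (0.60) and Atl1 (−0.38) lay within 2-fold. With an added 0.1 FPKM, or with each library divided by its total FPKM, 2 of these genes, Ehd3 and Ehd2, were at least 2-fold lower.

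**Figure D5:**
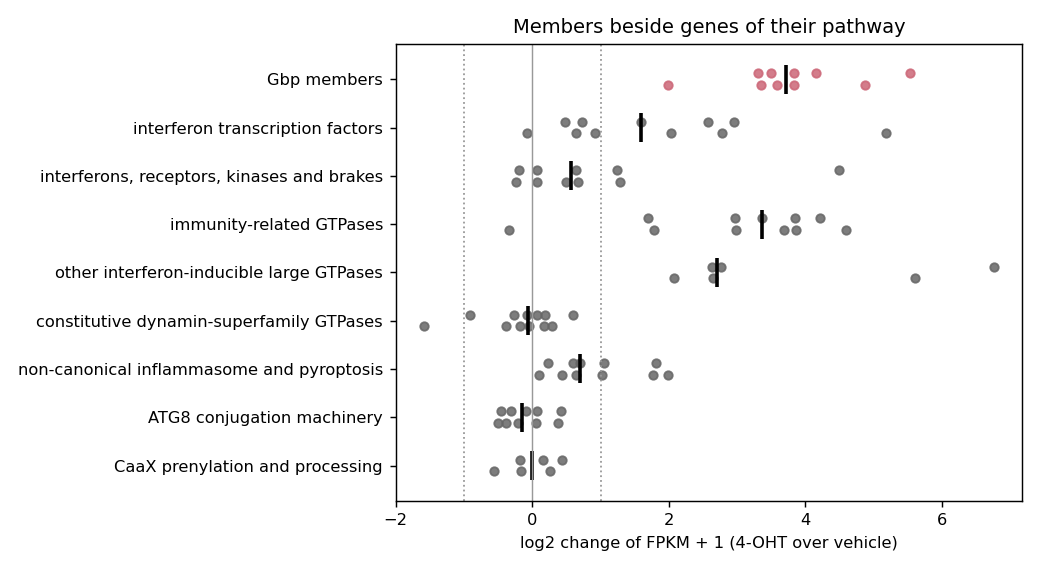
Log2 change of FPKM + 1 for each tested gene (points) and the median (black bar) of the GBP members and of 8 lists of related genes, with dotted lines at 2-fold. The GBP members lie at 1.99 to 5.53, and the conjugation, prenylation and constitutive dynamin lists centre near 0.

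Genes that act downstream of GBPs were higher in part. Of 11 genes of the caspase-11 inflammasome and pyroptosis, 5 were at least 2-fold higher and 6 were not, against 5.78% of all genes tested. The median was 0.70. At 4-fold the count was 0 of 11, against 2.16% of all genes. Casp4, which encodes caspase-11, the sensor of bacterial lipopolysaccharide that GBPs help to reach its target, was at 30.8 and 124 FPKM (log2 change 1.98). The cytokine genes Il1b (25.4 and 91.9 FPKM, 1.81) and Il1a (61.96 and 214 FPKM, 1.77) were higher as well. Casp1, at 47.8 and 101 FPKM, and Gsdmd, the pore of pyroptosis, at 27.1 and 56.3 FPKM, lay just past 2-fold, and with each library divided by its total FPKM the count was 3 of 11.

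The genes that place GBPs on membranes lay within 2-fold. Most genes tested did too, with 5.78% at least 2-fold higher and 3.48% at least 2-fold lower. Of 10 genes of the ATG8 conjugation machinery, which directs GBPs to vacuoles, 10 were within 2-fold, with a median of −0.15. Atg5 (21.0 and 22.2 FPKM) and Atg7 (21.4 and 20.1 FPKM) lay closest to equal among those named, and Gabarapl2 (−0.50), Map1lc3a (−0.45), Atg3 (0.42) and Gabarapl1 (−0.38) lay farthest. Of 6 genes for prenylation and its processing, 6 were within 2-fold, with a median of −0.0050. Fnta, the subunit shared by both prenyl transferases, was at 28.0 and 18.7 FPKM, Pggt1b at 19.4 and 23.3 FPKM, Rce1 at 10.5 and 14.6 FPKM and Zmpste24 at 27.8 and 24.4 FPKM.

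Outside the family, the genes of at least 5 FPKM with a log2 change closest to the chromosome 3 median of 3.83 were Igtp (3.84), Phf11a (3.82) and Ly6a (3.81). Closest to the chromosome 5 median of 3.36 were Irgm2 (3.36), Samd9l (3.35) and Gm24620 (3.34). This likeness is a distance between single changes over 2 libraries, and Gm24620 was listed at 0 with vehicle.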

How the data were processed

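RNA was measured in 1 vehicle and 1 4-OHT library, grouped by treatment label. The authors deposited FPKM per gene and library, a log2 fold change, and p-values and q-values, per the file headers. Per the submitters' processing notes, STAR, Cufflinks and GRCm38 were used, with no version or role stated. The deposited log2 value was the log2 of FPKM + 1 with 4-OHT over vehicle, to within 1e-09 in 17145 rows. Symbols were restored in 20 rows, and 17 symbols on more than 1 row were reduced to the row with the largest sum. Coordinates and transcripts came from GENCODE M21, which held all 17145 identifiers.

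Changes used a pseudocount of 1 FPKM, which understates low genes, and a minimum of 1 FPKM in the higher library. Fragments were recovered from low FPKM values of 3199 genes with 1 transcript over 600 bases. For each library the step and length offset were chosen to bring the largest share of values within 0.1 of a whole number. With steps of 0.0260 and 0.0328 FPKM times kilobases, this share was 97.7% of 436 vehicle values and 99.1% of 540 4-OHT values. The 20% reached by chance is for a step not fitted to the values. Intervals are exact 95% intervals and cover counting error. Named genes were all Gbp rows, the 4 largest absolute changes and fixed genes of each list, coding neighbours, and the 3 closest genes per cluster. Members and lists were chosen with earlier results of these data known. Protein sequences were not used here. The fold calls and the fragment step were tested on simulated data. Python 3.11.15, numpy 2.4.6, pandas 2.3.3 and scipy 1.17.1 were used. A single gene of the transcription factor list is counted with its list and not reported here by itself.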

Additional observations from a re-analysis of the deposited data

How the results depend on the processing

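The count of 10 members at least 2-fold higher was the same with a pseudocount of 0.1 or 5 FPKM, with no minimum or a minimum of 5 FPKM, and with libraries divided by total or median FPKM. It was 9 at 4-fold and 8 by the authors' q-value. The minimums could not drop a member, since every member had at least 9.80 FPKM with 4-OHT. Division by total FPKM moved the median change of all genes to −0.11, and the lowest member change was then 1.83. The pseudocount moved single members more: 3 of 10 changes moved with 0.1 FPKM and 5 with 5 FPKM. Gbp10 went from 3.31 to 5.68 and 1.54, the last below Gbp8 at 1.79, and Gbp5 from 5.53 to 6.13 and 4.25. The chromosome 5 median moved to 4.42 with a pseudocount of 0.1 FPKM, because low vehicle values are shrunk less, while that of chromosome 3 lay between 3.58 and 3.90 under the alternatives tried; the means were 4.06 on chromosome 3 and 3.54 on chromosome 5. Of all genes, 456 were at least 2-fold higher with a pseudocount of 5 FPKM, 293 were at least 4-fold higher and 295 passed the authors' q-value. No member change or median past 2-fold turned its direction. A pseudocount cannot turn a direction and the scalings were small, so this is no check. Of 128 list counts, 7 moved by over 1.5 times. No paired analysis was possible because each group had 1 library. For the same reason no replicate could be left out. Depth limits Gbp10 and Gbp11 with vehicle, and sequence sharing limits Gbp6 and Gbp10.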
